A study of Mus musculus with 4 samples.

Results

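The genes described here are 35 members of the unfolded protein response and of the protein folding machinery of the endoplasmic reticulum (ER), followed in cultured mouse liver tumour cells given a retinoid, a histone deacetylase inhibitor, or both. The members were chosen by gene symbol, as a list of sensors, stress outputs, chaperones and degradation genes. The list was drawn up with earlier results of these data known, so its shares beside all genes only describe it. All 35 were found among the 23359 genes of the expression table. Of these, 34 averaged 1 FPKM or more across the 4 libraries and were counted, among 8616 genes that did. FPKM is fragments per kilobase of transcript scaled to sequencing depth, a level per length that can be set side by side between genes.

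The cells were tumour-initiating stem-like cells (TICs) that had been isolated from liver tumours of C57BL/6 mice and grown with serum, EGF and dexamethasone. One culture was given all-trans retinoic acid (ATRA), a ligand of the retinoic acid receptors derived from vitamin A, together with suberoylanilide hydroxamic acid (SAHA), which inhibits histone deacetylases, another ATRA alone at 5 µg/ml, another SAHA alone at 0.5 µg/ml, and the last received vehicle. The treatments lasted 16 hours, the combination is described as both compounds with no other dose, and the vehicle culture's time and the number of tumours or animals behind the line are not stated in the labels. RNA depleted of ribosomal RNA was sequenced from 1 library per group, so no difference below has a replicate check, and no error or p-value is given.

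The ER folds and glycosylates secreted and membrane proteins, and the unfolded protein response adjusts its capacity through the sensors PERK, IRE1 and ATF6. PERK phosphorylates eIF2α, which slows translation while favouring that of ATF4, and ATF4 raises CHOP (Ddit3), GADD34 (Ppp1r15a) and ATF3. ATF6, cleaved in the Golgi, and XBP1, whose mRNA is spliced by IRE1, raise chaperones such as BiP and the genes of ER-associated degradation (ERAD), which returns misfolded proteins to the cytosol for the proteasome. Liver cells secrete much protein and are a common setting for work on this response.

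Depth was alike in the 4 libraries: 1 FPKM over 1 kilobase stood for an estimated 100.2 fragments with the combination, 95.3 with ATRA, 96.9 with SAHA and 97.6 with vehicle. A single gene, Gm20594, held 10.3%, 16.6%, 33.9% and 18.0% of all FPKM in the same order, which can move every other gene's FPKM, and its part in the differences below was not tested beyond a rescaling that leaves it out. Of the fixed cell type markers, 0 of 8 hepatocyte genes were counted, and Afp, the highest of them in vehicle, had 0.123, 0.112, 0.328 and 0.0983 FPKM with the combination, ATRA, SAHA and vehicle. Likewise 0 of 5 endothelial genes were counted, Kdr being the highest at 0.0391, 0.0506, 0.0204 and 0.0813 FPKM. The highest markers of the mesenchymal, bile duct and tumour-initiating lists in vehicle were Vim (362, 432, 319 and 562 FPKM in the same order), Spp1 (433, 566, 939 and 336 FPKM) and Cd44 (20.97, 42.2, 31.5 and 61.8 FPKM). Of 6 mesenchymal markers 3 were counted, Vim, Sparc and Acta2, while Col1a1 and Col1a2 stayed at or below 0.0416 and 0.0157 FPKM. Of 5 bile duct markers 3 were counted, Spp1, Krt7 and Sox9, while Epcam and Krt19 stayed at or below 0.0998 and 0.778 FPKM. Among 9 listed tumour-initiating cell markers 3 were counted, Cd44, Sox2 (0.548, 7.44, 0.575 and 3.20 FPKM) and Tlr4 (0.333, 5.08, 0.466 and 5.09 FPKM), and all 3 were lower by the mark used below with the combination than with vehicle. Prom1, Nanog and Pou5f1 were not counted. The summed level of 6 macrophage markers was 4.35, 2.46, 5.31 and 1.96 FPKM, nearly all of it Cd68 (4.26, 2.41, 5.20 and 1.89 FPKM), while Ptprc, the pan-leukocyte marker, was at or below 0.0151 FPKM. The part of such markers in the results was not tested. Cells rich in ER for secretion were represented by Sdc1, at 6.17, 6.11, 6.92 and 5.42 FPKM, while the other 5 plasma and pancreatic markers stayed at or below 0.151 FPKM in every library. In bulk RNA, fewer cells of a type and less RNA per cell cannot be told apart.

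The members' summed level was 1296 FPKM with the combination, against 457 FPKM with ATRA, 564 FPKM with SAHA and 405 FPKM with vehicle. Ddit3 and Hspa5 made up 778 FPKM of the combination's sum, against 72.0 FPKM with ATRA, 96.6 FPKM with SAHA and 72.5 FPKM with vehicle. The other 33 members summed to 518, 385, 468 and 333 FPKM in that order. As deposited, the combination had the highest sum with or without these genes. After the rescaling described below, chosen for these sums after the values were seen, all members summed to 1124, 407, 776 and 406 FPKM, but the other 33 summed to 449 FPKM with the combination, 343 with ATRA, 643 with SAHA and 334 with vehicle, so that SAHA was then highest without Ddit3 and Hspa5. In vehicle the most abundant members were chaperones and folding enzymes: Hspa5 at 47.1 FPKM, Hsp90b1 at 39.1 FPKM, Canx at 37.6 FPKM and P4hb at 37.2 FPKM. With the combination Ddit3, a transcription factor gene, headed the list.

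**Figure D1:**
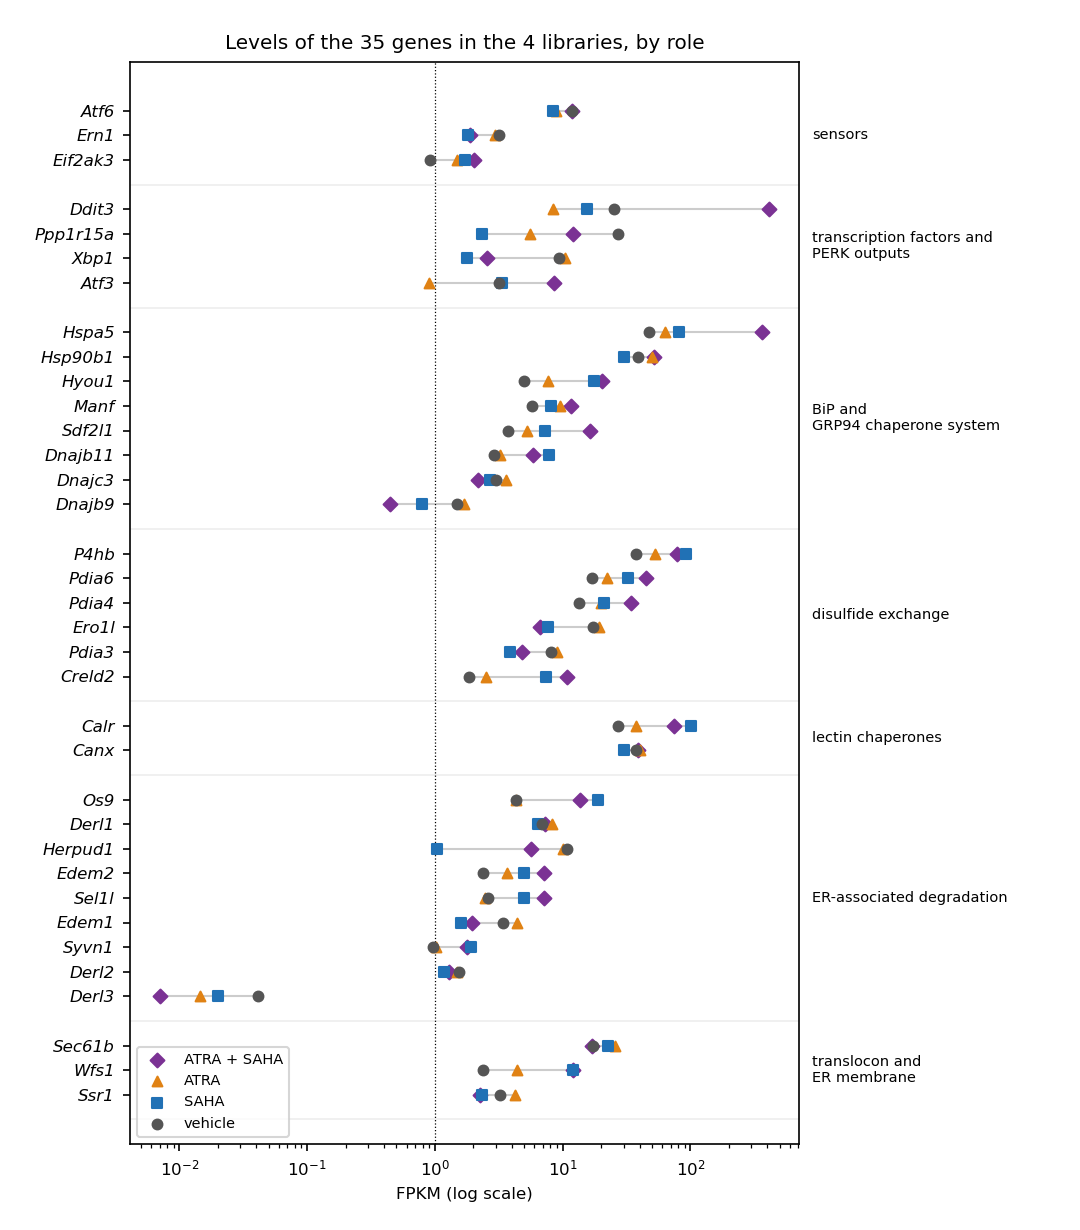
FPKM of the 35 members in each library on a log axis, with members in rows by role and 1 point per library (combination, ATRA, SAHA, vehicle; 1 library each, so no error bars). Ddit3 (411 FPKM) and Hspa5 (367 FPKM) stand to the right of every other member in the combination library, and Derl3 lies far left in all of them.

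Differences were taken as log2(FPKM + 1), a scale that understates the difference of low genes, and a member counted as higher or lower once the log2 difference reached 1 in size, which is 2-fold on that scale. Folds are ratios of the FPKM themselves. In the combination against vehicle 14 of 34 members (41.2%) were higher, beside 11.1% of all counted genes, and 3 members (8.82%) were lower, beside 12.6% of all. The members' median log2 difference was 0.57, and that of all counted genes was 0.04. The higher members were Ddit3, Hspa5, Creld2, Wfs1, Sdf2l1, Hyou1, Os9, Calr, Pdia6, Pdia4, Edem2, Atf3, Sel1l and P4hb, and the lower ones Xbp1, Ero1l and Ppp1r15a.

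In SAHA against vehicle, 7 of 34 members (20.6%) were higher, beside 7.88% of all genes, and 4 (11.8%) were lower, beside 16.0%. The median was 0.21 for members and -0.12 for all genes. The higher members were Wfs1, Os9, Calr, Hyou1, Creld2, P4hb and Dnajb11. The lower ones were Ppp1r15a, Herpud1, Xbp1 and Ero1l.

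With ATRA alone no member was higher by the mark: 0 of 34 in ATRA against vehicle, beside 0.917% of all genes, and 3 (8.82%) were lower, beside 1.20%. The lower ones were Ppp1r15a, Ddit3 and Atf3. The other members lay between -0.37 for Atf6 and 0.68 for Wfs1, with a member median of 0.21 and an all-gene median of -0.00.

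Set against the single compounds, the combination had 6 of 34 members (17.6%) higher than SAHA, beside 3.04% of all genes, and 0 lower, beside 0.929%. They were Ddit3, Hspa5, Ppp1r15a, Herpud1, Atf3 and Sdf2l1. Against ATRA 9 members (26.5%) were higher, beside 10.5% of all, and 2 (5.88%) lower, beside 11.9%. The 9 were Ddit3, Hspa5, Atf3, Creld2, Sdf2l1, Os9, Hyou1, Wfs1 and Sel1l, and the lower 2 were Xbp1 and Ero1l. These comparisons share libraries with those against vehicle, so their counts are not independent of them.

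The combination's departure from additivity, its log2 difference from vehicle minus the sum of those of ATRA and SAHA, was 1 or more for 5 of 34 members (14.7%), beside 4.69% of all genes. It was -1 or less for 0 members, beside 1.73% of all. The 5 were Ddit3 at 6.13, Ppp1r15a at 4.06, Atf3 at 2.26, Herpud1 at 1.80 and Hspa5 at 1.74. All of these stayed past the mark when the libraries were rescaled. The other members lay between -0.92 for Sec61b and 0.82 for Atf6, and the median over all 34 was 0.04, below the 0.15 of all counted genes.

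**Figure D2:**
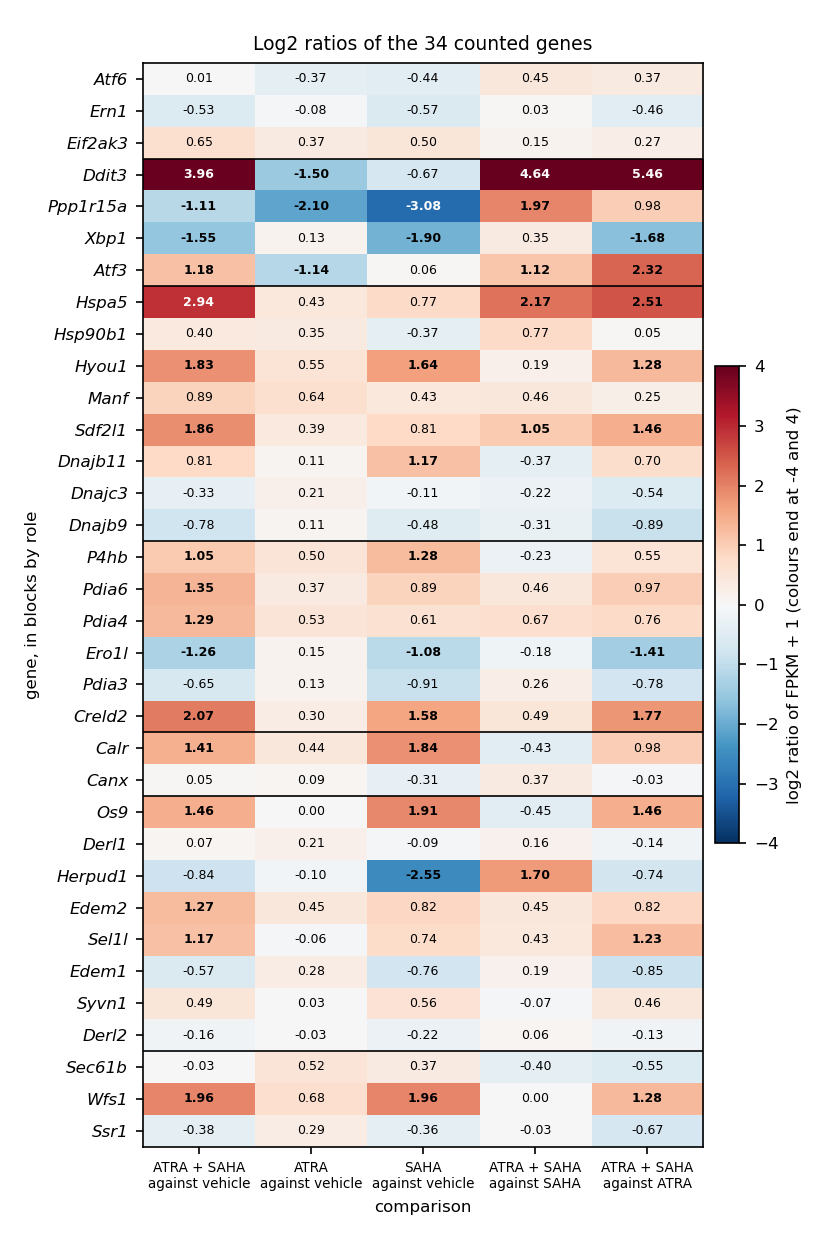
Log2(FPKM + 1) differences of the 34 counted members (rows, by role) in the 5 comparisons (columns), with the value in each cell. As deposited, Ddit3 shows 3.96 for the combination against vehicle but -1.50 for ATRA and -0.67 for SAHA. Wfs1 shows 1.96 for the combination and for SAHA, an equality that depends on the scaling.

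Another scaling moved these splits. When each library was rescaled to one FPKM sum without small RNAs and the 10 highest genes, the all-gene median moved to 0.21 for SAHA against vehicle and to -0.33 for the combination against SAHA. The share of higher among called genes moved to 61.6% for SAHA against vehicle, against 33.0% as deposited, and for members to 81.3%, against 63.6%. The members higher in SAHA against vehicle then numbered 13, as Edem2, Hspa5, Pdia4, Pdia6, Sdf2l1 and Sel1l joined the 7, and in the combination against vehicle 11, as Atf3, P4hb and Sel1l dropped out. The members' medians in these comparisons were then 0.61 and 0.44, so the order of SAHA and the combination in counts and medians depends on the scaling. For the combination against SAHA it moved to 23.0% of all calls, against 76.6%, and to 57.1% of member calls, against 100%, as Calr, Os9 and Sec61b passed the mark downward and Atf3 and Sdf2l1 no longer passed it upward. The combination against vehicle had 33.5% of all calls higher after rescaling, against 46.7%, with 4 members lower, Herpud1 (-1.02) being added. Among departures, the higher share of all genes moved to 33.6%, against 73.1%, and 4 members (Calr, P4hb, Sec61b and Wfs1) then lay at -1 or less.

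Of the sensors, Atf6, the gene of the Golgi-cleaved transcription factor precursor, had 11.8 FPKM with the combination, 8.90 with ATRA, 8.402 with SAHA and 11.8 with vehicle. Ern1, which encodes the kinase and RNase IRE1, had 1.89, 2.97, 1.82 and 3.19 FPKM in the same order of libraries. Eif2ak3, which encodes the kinase PERK, had 2.01, 1.49, 1.71 and 0.922 FPKM. No sensor passed the mark in any comparison, and the widest difference was the 0.65 of Eif2ak3 in the combination against vehicle, which was 1.04 with a pseudocount of 0.1. PERK's gene was thus lowest in vehicle and IRE1's gene highest there.

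The stress outputs differed most among libraries. Ddit3 encodes CHOP, a transcription factor that promotes cell death under lasting ER stress. Its deposited interval, which may reach beyond the gene, is on chromosome 10 from 127290793 to 127311786 in mm10. Ddit3 had 411 FPKM with the combination, 8.34 with ATRA, 15.6 with SAHA and 25.4 with vehicle. The combination stood 16.2-fold above vehicle, where Ddit3 ranked 12 among 8616 genes, and 26.4-fold above SAHA and 49.3-fold above ATRA. As deposited, Ddit3 lay below vehicle with each compound alone, by -1.50 with ATRA and by -0.67, short of the mark, with SAHA. The SAHA difference narrows after rescaling, which multiplied SAHA by 1.38 and vehicle by 1.003. The deposited interval of Ddit3 overlaps that of Mars, which had at most 8.72 FPKM in any library.

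Ppp1r15a encodes GADD34, the phosphatase subunit that reverses eIF2α phosphorylation, and lies on chromosome 7 from 45522917 to 45526268. It had 12.0 FPKM with the combination, 5.56 with ATRA, 2.32 with SAHA and 27.0 with vehicle. It was thus lower than vehicle in every treated library, with log2 differences of -1.11, -2.10 and -3.08. The combination stood 5.16-fold above SAHA. Ddit3 and Ppp1r15a, both known targets of ATF4, thus lay on opposite sides of vehicle with the combination and on the same side of SAHA.

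Atf3, a stress-induced repressor of the ATF family on chromosome 1 from 191170297 to 191183333, had 8.49 FPKM with the combination, 0.905 with ATRA, 3.36 with SAHA and 3.19 with vehicle. It was 2.66-fold higher with the combination than with vehicle, and 9.37-fold higher than with ATRA. Atf3's call against vehicle lay close to the mark, at 1.18, and came to 0.99 after rescaling. Its call against SAHA, at 1.12, came to 0.98 after centring and to 0.57 after rescaling. Xbp1, the factor whose mRNA IRE1 splices, had 2.56 FPKM with the combination, 10.4 with ATRA, 1.79 with SAHA and 9.40 with vehicle. The SAHA-containing libraries were low and the others high, and within each of these pairs the ATRA-treated library differed by less than the mark. Gene-level FPKM does not separate spliced from unspliced Xbp1.

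**Figure D3:**
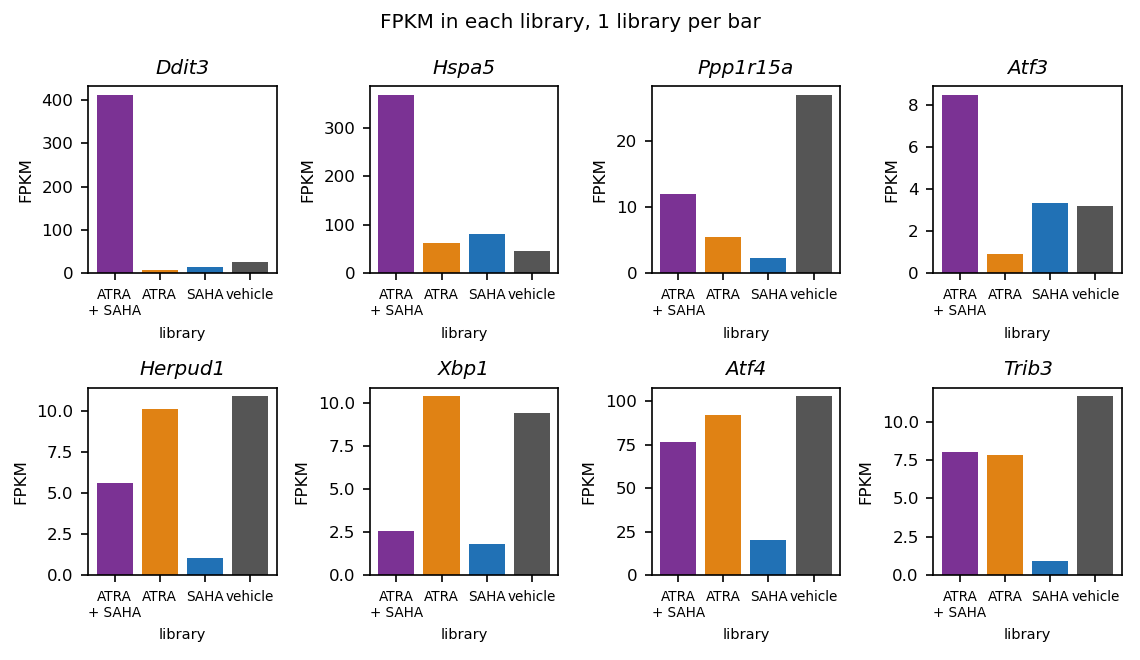
FPKM in each library (bars, 1 library each, in the order ATRA + SAHA, ATRA, SAHA, vehicle, on axes from 0), 1 gene per panel. Shown are the members Ddit3, Hspa5, Ppp1r15a, Atf3, Herpud1 and Xbp1, and Atf4 and Trib3 from outside the members. The combination is the highest bar for Ddit3, Hspa5 and Atf3, ATRA for Xbp1, and vehicle for Ppp1r15a, Herpud1, Atf4 and Trib3.

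Promoter sequences were read for the members because several of them are known to share short elements that stress factors bind. RefSeq windows on GRCm38.p6, from 250 bases before to 50 after a gene's start, were found for 31 of the 35 members, and for all of 27025 genes. To check orientation, bases just after each member's start were sought in transcripts of the same gene. They were found for 27 of 32 windows, and not for those of Dnajc3, Derl3, Xbp1, Pdia4 and Os9. The ER stress element, CCAAT and CCACG with 9 bases between, was found on either strand in 9 of 31 members (29.0%), beside 37 of all genes (0.137%). Those 9 were Calr, Canx, Creld2, Derl3, Dnajc3, Hsp90b1, Hspa5, Pdia6 and Syvn1. This element was first defined on promoters of such chaperones, so its presence here is a description of the list and not a finding of these libraries. The shorter second form, ATTGG and CCACG with 1 base between, was found in Dnajb11 and Herpud1 (6.45% of members, beside 0.0444% of genes). The XBP1 element, TGACG followed by TGG, and the C/EBP-ATF element, TGATG and AAT with 1 base between, were found in 0 of 31 members, beside 0.714% and 1.08% of genes. The cyclic AMP response core TGACGTCA, which ATF3 and its relatives are known to bind and which was added after the values were seen, was found in Ppp1r15a (3.23% of members, beside 2.03% of genes). A match is a stretch of letters and not a measured binding site, and a missing match says only that the letters are not in this window.

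Members with the ER stress element differed widely in the combination against vehicle, and all 8 counted members that hold it are shown for comparison in the order of that difference, each 5′ to 3′ on the gene's strand with the element in capitals. Hspa5 (log2 difference 2.94) is at chr2:34771940-34772089, plus strand, and is shown at greater length as the member with the highest level among chaperones. Creld2 (2.07) is at chr15:88819500-88819558, plus strand, with the element reversed. Calr (1.41) is at chr8:84847055-84847113, minus strand, also reversed. Pdia6 (1.35) is at chr12:17266471-17266529, plus strand. Syvn1 (0.49) is at chr19:6046512-6046570, plus strand. Hsp90b1 (0.40) is at chr10:86705513-86705571, minus strand, reversed, and holds another copy further upstream. Canx (0.05) is at chr11:50325780-50325838, minus strand. Dnajc3 (-0.33) is at chr14:118937807-118937865, plus strand, and its window was not matched in the orientation check.
Hspa5: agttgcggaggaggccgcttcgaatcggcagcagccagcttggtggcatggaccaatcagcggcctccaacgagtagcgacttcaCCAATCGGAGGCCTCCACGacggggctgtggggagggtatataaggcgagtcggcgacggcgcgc
Creld2: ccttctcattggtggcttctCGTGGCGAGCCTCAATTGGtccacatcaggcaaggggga
Calr: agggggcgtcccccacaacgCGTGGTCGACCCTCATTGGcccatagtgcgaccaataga
Pdia6: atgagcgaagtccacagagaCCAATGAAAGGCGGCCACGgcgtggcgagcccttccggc
Syvn1: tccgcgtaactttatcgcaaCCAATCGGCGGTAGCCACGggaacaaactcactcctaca
Hsp90b1: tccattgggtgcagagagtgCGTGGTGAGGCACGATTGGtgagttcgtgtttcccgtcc
Canx: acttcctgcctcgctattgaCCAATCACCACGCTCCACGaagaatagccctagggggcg
Dnajc3: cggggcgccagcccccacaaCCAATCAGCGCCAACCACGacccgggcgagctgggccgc

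The windows of Herpud1 at chr8:94386357-94386407, plus strand, and of Ppp1r15a at chr7:45526269-45526300, minus strand, are shown because both genes were lowest with SAHA and higher with the combination than with SAHA. Capitals mark the second ER stress element in Herpud1 and the cyclic AMP response core in Ppp1r15a.
Herpud1: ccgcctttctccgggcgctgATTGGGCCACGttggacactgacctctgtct
Ppp1r15a: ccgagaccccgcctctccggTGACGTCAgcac

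Among chaperones, Hspa5 encodes BiP, the ER's HSP70, which also holds the sensors inactive, and lies on chromosome 2 from 34772090 to 34776529. It had 367 FPKM with the combination, 63.6 with ATRA, 81.0 with SAHA and 47.1 with vehicle. The combination was 7.79-fold above vehicle, 5.77-fold above ATRA and 4.53-fold above SAHA, and neither compound alone passed the mark (0.43 with ATRA and 0.77 with SAHA). After rescaling, Hspa5 passed it in SAHA against vehicle, at 1.22. Hsp90b1, the ER's HSP90 (GRP94), whose window above also holds the element, did not follow: it had 51.8, 50.01, 30.0 and 39.1 FPKM, with no difference past the mark.

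Partners of BiP differed in which compound they followed. Hyou1, a large HSP70 relative that exchanges BiP's nucleotide, had 20.3 FPKM with the combination, 7.73 with ATRA, 17.6 with SAHA and 4.98 with vehicle. It was high in the libraries with SAHA, 4.07-fold above vehicle with the combination and 3.54-fold with SAHA alone. Sdf2l1, a component of the BiP and DNAJB11 complex, had 16.3, 5.26, 7.33 and 3.77 FPKM, and the combination stood 4.32-fold above vehicle and 2.22-fold above SAHA. That last call, at 1.05 on the log2 scale, came to 0.91 after centring on all genes and to 0.45 after rescaling. Dnajb11, a J-domain cochaperone, had 5.85, 3.23, 7.84 and 2.92 FPKM and passed the mark with SAHA alone (1.17) but not with the combination (0.81). Manf, a secreted ER stress protein, had 11.6, 9.58, 8.15 and 5.77 FPKM, lowest in vehicle and within the mark throughout.

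The remaining cochaperones lay below vehicle with the combination. Dnajc3, the J-domain protein p58IPK, had 2.17 FPKM with the combination, 3.62 with ATRA, 2.70 with SAHA and 2.998 with vehicle, short of the mark. Dnajb9, a J-domain protein that acts on IRE1 through BiP, had 0.445, 1.68, 0.786 and 1.49 FPKM, 3.35-fold lower with the combination than with vehicle. Its log2 difference was -0.78, short of the mark, but -1.54 with a pseudocount of 0.1. It has the fewest fragments of the counted members, an estimated 63.4 in the combination library.

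Of the 6 disulfide exchange genes, 4 were higher and 1 was lower in the combination than in vehicle, beside 11.1% and 12.6% of all counted genes. Creld2, an ER stress protein with disulfide exchange activity, had 10.9 FPKM with the combination, 2.49 with ATRA, 7.47 with SAHA and 1.84 with vehicle, or 5.92-fold above vehicle with the combination and 4.05-fold with SAHA. P4hb, the classical protein disulfide isomerase, had 78.2, 53.2, 91.9 and 37.2 FPKM and was highest with SAHA alone. Its call in the combination against vehicle, at 1.05, came to 0.84 after rescaling. Pdia6, another isomerase, had 45.1, 22.4, 32.6 and 17.1 FPKM, and Pdia4, a further one, had 34.5, 19.9, 21.2 and 13.5 FPKM. With the combination Pdia6 was 2.63-fold and Pdia4 2.55-fold above vehicle, and neither passed the mark with 1 compound alone. In SAHA against vehicle, however, Pdia6 came to 1.01 after centring and 1.34 after rescaling, and Pdia4 to 1.05 after rescaling. The deposited interval of Pdia6 overlaps Atp6v1c2 (at most 0.215 FPKM) and that of Pdia4 overlaps Mir704 (at most 9.17 FPKM).

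Ero1l and Pdia3 lay below vehicle. Ero1l, the oxidase that recharges the isomerases, had 6.63 FPKM with the combination, 19.2 with ATRA, 7.63 with SAHA and 17.3 with vehicle, low in both libraries with SAHA. Pdia3, the isomerase that works with the lectin chaperones, had 4.83, 8.98, 3.87 and 8.12 FPKM, also lower in the libraries with SAHA but short of the mark, at -0.65 with the combination and -0.91 with SAHA alone (-1.05 with a pseudocount of 0.1). Ero1l's call in SAHA against vehicle, at -1.08, came to -0.96 after centring and to -0.68 after rescaling.

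The lectin chaperones bind newly made glycoproteins and differed from each other in these libraries. Calr, calreticulin, the soluble one, had 74.5 FPKM with the combination, 37.4 with ATRA, 101 with SAHA and 27.3 with vehicle, 2.72-fold above vehicle with the combination and 3.68-fold with SAHA. Canx, calnexin, its membrane-bound relative, had 39.1, 40.02, 30.0 and 37.6 FPKM and passed the mark in no comparison. Both windows hold the ER stress element.

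In ERAD, 3 of 8 counted members were higher and 0 lower in the combination against vehicle, beside 11.1% and 12.6% of all counted genes. Os9, a lectin that delivers misfolded glycoproteins to the ubiquitin ligase, had 13.7 FPKM with the combination, 4.33 with ATRA, 19.0 with SAHA and 4.32 with vehicle. It was 3.16-fold above vehicle with the combination, 4.397-fold with SAHA, and at a log2 difference of 0.00 with ATRA. Edem2, a mannosidase that starts glycan trimming for degradation, had 7.198, 3.64, 4.996 and 2.397 FPKM, or 3.003-fold above vehicle with the combination. Sel1l, the adaptor of the ubiquitin ligase HRD1, had 7.09, 2.45, 5.02 and 2.599 FPKM, 2.73-fold above vehicle at a log2 difference of 1.17 that came to 0.99 after rescaling.

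Herpud1, a membrane protein of the HRD1 complex, was far lower with SAHA than in the other libraries, and lies on chromosome 8 from 94386500 to 94395358. It had 5.65 FPKM with the combination, 10.1 with ATRA, 1.04 with SAHA and 10.9 with vehicle. SAHA alone was 10.5-fold below vehicle, and the combination 5.43-fold above SAHA. Against vehicle the combination lay at -0.84, short of the mark, and at -1.02 after rescaling. Herpud1 is the only member besides Ppp1r15a that was lower with SAHA than with vehicle and higher with the combination than with SAHA, both past the mark.

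The rest of ERAD stayed within the mark against vehicle. Edem1, a further mannosidase-like protein, had 1.96 FPKM with the combination, 4.35 with ATRA, 1.603 with SAHA and 3.40 with vehicle, and its -0.76 in SAHA against vehicle was -1.04 with a pseudocount of 0.1. Syvn1, the ligase HRD1 itself, had 1.77, 1.01, 1.91 and 0.973 FPKM. The deposited interval of Syvn1 overlaps Mrpl49 (at most 19.5 FPKM), whose reads were not separated from it. Derl1 and Derl2, membrane proteins of the retrotranslocation channel, had 7.32, 8.19, 6.42 and 6.92 FPKM and 1.28, 1.496, 1.18 and 1.54 FPKM. Derl3, their relative known from secretory tissue, had 0.00704, 0.0145, 0.01996 and 0.0412 FPKM, an estimated 5.30 fragments or fewer per library, and was not counted.

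At the translocon and ER membrane, Wfs1, an ER calcium and stress protein mutated in Wolfram syndrome, had 12.1 FPKM with the combination, 4.39 with ATRA, 12.1 with SAHA and 2.37 with vehicle. As deposited, both libraries with SAHA were 5.12-fold above vehicle, and the combination differed from SAHA by a log2 of 0.00. This equality depends on the scaling, as rescaling multiplied the combination by 0.867 and SAHA by 1.38. The departure from additivity of Wfs1 was then -1.16. Sec61b, a subunit of the channel that admits new proteins, had 17.1, 25.5, 22.8 and 17.4 FPKM. Ssr1, of the translocon-associated complex, had 2.27, 4.20, 2.33 and 3.26 FPKM. Neither passed the mark.

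ATRA's effect can be read in 2 pairs of libraries that share none: ATRA against vehicle, and the combination against SAHA. Of 34 members, 16 (47.1%) lay above 0 in both pairs, beside 35.4% of all counted genes, and 0 below 0 in both, beside 18.9%. These signs turn with the scaling: after rescaling 4 members lay above 0 in both and 11 below 0 in both, beside 5.71% and 60.7% of all genes. Ddit3, Ppp1r15a and Atf3 were lower by the mark without SAHA and higher by it with SAHA, 3 members (8.82%), beside 0.151% of all counted genes, or 13 genes. This pattern was looked for after the values were seen. Ddit3 and Ppp1r15a kept it after centring and after rescaling, and Atf3 did not, with 0.98 and 0.57 in the combination against SAHA. Ddit3 had -1.50 without SAHA and 4.64 with it, Ppp1r15a -2.10 and 1.97, and Atf3 -1.14 and 1.12. Of the other 10 genes of that kind, 8 were small RNAs.

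**Figure D4:**
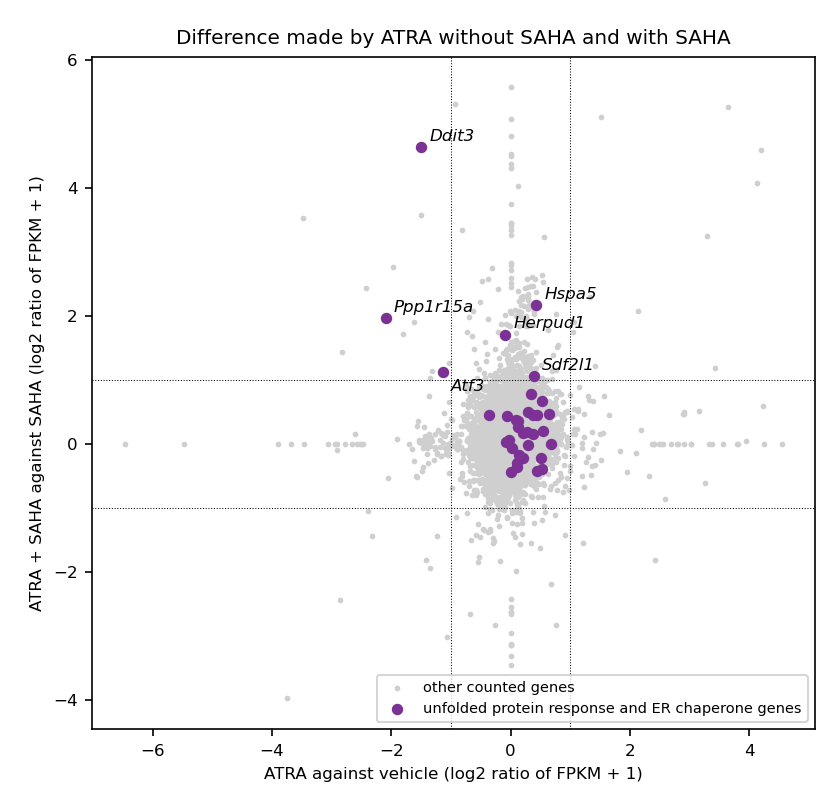
Log2(FPKM + 1) difference of ATRA against vehicle (horizontal) and of the combination against SAHA (vertical), pairs that share no library, for all 8616 counted genes (grey) and the 34 counted members (coloured). Ddit3, Ppp1r15a and Atf3 sit at the upper left, at -1.50, -2.10 and -1.14 on the horizontal axis and 4.64, 1.97 and 1.12 on the vertical.

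SAHA's effect was likewise set out in SAHA against vehicle and the combination against ATRA. Hyou1, Creld2, Os9 and Wfs1 were higher by the mark in both pairs (4 of 34, or 11.8%, beside 5.51% of all genes), and Xbp1 and Ero1l were lower in both (5.88%, beside 9.32%). Dnajb11, P4hb and Calr passed the mark upward without ATRA but not with it, beside 2.37% of all genes, although Calr missed it narrowly with ATRA, at 0.98. Ddit3, Hspa5, Atf3, Sdf2l1 and Sel1l passed it upward with ATRA but not without it, beside 4.94%. Ppp1r15a and Herpud1 passed it downward without ATRA but not with it, beside 6.71%. After rescaling, Hspa5 (1.22), Sdf2l1 (1.21) and Sel1l (1.13) also passed the mark upward without ATRA. Then 7 members (20.6%) were higher in both pairs, beside 7.45% of all genes, and 1 (2.94%) was lower in both, beside 7.23%. The differences between the pairs were not tested. In sign alone, 17 of 34 members were above 0 in both pairs, beside 37.8% of all genes, and 12 (35.3%) below 0 in both, beside 42.7%.

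Other genes of the pathway, 186 in 9 lists, were counted by the same mark. The lists were taken from general knowledge of it, with earlier results of these data known. Of 157 counted, 10 were higher (6.37%, beside 11.1% of all genes) and 17 lower (10.8%, beside 12.6%) in the combination against vehicle. In ATRA against vehicle 0 were higher and 0 lower, beside 0.917% and 1.20%. In SAHA against vehicle 6 were higher (3.82%, beside 7.88%) and 26 lower (16.6%, beside 16.0%). The PERK and ATF4 list, the genes most closely tied to Ddit3, had 0 higher and 6 lower of 20 in the combination against vehicle, with a median of -0.79. In SAHA against vehicle it had 1 higher and 13 lower, with a median of -1.44. In the combination against SAHA it had 4 higher and 0 lower, beside 3.04% and 0.929% of all genes. That comparison depends on the scaling, as its all-gene median moved from 0.14 to -0.33 after rescaling. This list was not counted again after rescaling. The named genes of that list were Atf5 (0.838, 5.42, 0.838 and 8.71 FPKM with the combination, ATRA, SAHA and vehicle), a transcription factor, and Eif2ak1 (6.03, 2.39, 7.52 and 3.10 FPKM) and Eif2ak2 (0.983, 2.76, 1.03 and 6.41 FPKM), other eIF2α kinases.

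Some genes of the PERK and ATF4 list, chosen after their values were seen, were lowest with SAHA. Atf4, the factor upstream of Ddit3, had 76.6 FPKM with the combination, 92.3 with ATRA, 20.3 with SAHA and 103 with vehicle. Trib3, an ATF4 target that dampens the response, had 8.03, 7.84, 0.946 and 11.7 FPKM. Asns, asparagine synthetase and also an ATF4 target, had 40.4, 67.6, 19.3 and 65.0 FPKM. Atf4, Trib3 and Asns did not exceed vehicle with the combination, unlike Ddit3. Other genes of that list were not lowest with SAHA, among them Ppp1r15b (3.17, 7.62, 4.36 and 9.90 FPKM) and Bcl2l11 (1.14, 0.765, 2.34 and 0.739 FPKM). Nupr1, a stress protein of the regulator list, had 28.5, 86.5, 2.14 and 58.5 FPKM.

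The other folding, glycosylation and transport lists are read beside the same 11.1% higher and 12.6% lower of all genes in the combination against vehicle. Of 30 other ER folding enzymes, 2 were higher and 4 lower in the combination against vehicle, among them Tmx2, a thioredoxin-like membrane protein (17.3, 3.55, 8.25 and 3.92 FPKM), Serpinh1, the collagen chaperone (10.6, 85.7, 4.25 and 80.3 FPKM), and Fkbp10, a prolyl isomerase (2.61, 11.9, 1.24 and 11.3 FPKM). In ERAD outside the members, 1 of 21 was higher, Edem3 (8.72, 2.398, 11.3 and 2.52 FPKM). Of 12 oligosaccharyltransferase genes 1 was higher, Dad1 (35.5, 14.4, 43.6 and 8.09 FPKM). Among 17 translocon and signal peptidase genes 2 were higher, Sec11c (13.9, 2.55, 9.31 and 3.13 FPKM) and Serp1 (25.5, 19.9, 20.2 and 12.2 FPKM), and 1 lower, Tram1 (3.001, 12.4, 3.45 and 8.79 FPKM). The calnexin cycle list had 1 of 8 higher, Prkcsh (15.3, 7.0, 13.3 and 6.45 FPKM), and the ER calcium list 1 of 13 higher, Tmco1 (3.35, 1.09, 2.78 and 1.01 FPKM), named after its values were seen, and 1 lower, Rcn1 (2.04, 6.18, 1.61 and 6.11 FPKM).

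Chaperones outside the ER were listed too. Of 27 cytosolic and mitochondrial chaperones and proteases 2 were higher and 3 lower in the combination against vehicle, beside 11.1% and 12.6% of all genes. Their median was 0.19, and that of all counted genes was 0.04. The higher were the mitochondrial proteins Lonp1 (30.0, 13.7, 17.0 and 11.4 FPKM) and Clpx (8.71, 3.04, 5.74 and 2.89 FPKM). The lower included the small heat shock protein gene Hspb8 (2.78, 11.1, 3.53 and 10.6 FPKM) and Bag3 (1.89, 5.20, 2.67 and 6.03 FPKM), its partner.

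The remaining genes named from these lists stayed within the mark in the combination against vehicle, between -0.94 for Stim2 and 0.98 for Creb3. They were Creb3, Tmbim6, Mbtps1, Eif2s1, Mcfd2, Man1b1, Ganab, Mogs, Nploc4, Ubxn4, Spcs3, Rpn1, Stt3b, Tmem258, Calu, Nucb1 and Stim2. Of them Stim2, an ER calcium sensor, was lower by the mark in the combination than in SAHA (1.31, 1.81, 5.56 and 3.44 FPKM).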

How the data were processed

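Total RNA from 4 cultures was depleted of ribosomal RNA, per the labels' protocols. The deposited values are FPKM, 1 column per library, per the file headers. Trimmomatic 0.32, Cuffdiff and mm10 were used, per the submitters' processing notes. Not given in the sources used here are the aligner, the Cuffdiff version, the annotation, the strand setting and any scaling.

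Values were taken as log2(FPKM + 1) over genes averaging 1 FPKM or more, and a difference of 1 or more was called. No test was run, since each group has 1 library. The counting rule was run on simulated data with large planted changes and little noise, which checks the code and not the calls above. Depth was taken from the lowest recurring value of FPKM multiplied by length, in a search range set after looking at the values. FPKM gives no counting interval, and precision is limited by 1 library per group. Genes sharing a locus were not separated.

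The members and lists were chosen with earlier results of these data known. Named were all 35 members and the highest marker of each cell type in vehicle. Of each other list, the 2 highest and 2 lowest genes in the combination against vehicle were named, described by examples. These had to reach 5 FPKM in any of the 4 libraries. A gene that this rule names is not reported here. Alternatives were a pseudocount of 0.1, no filter, a mean of at least 5 FPKM, centring on all genes, and rescaling without small RNAs and the 10 highest genes. Coordinates are from GRCm38.p6 (mm10), and gene intervals are the deposited ones, whose ends were not checked against the genes' own. Protein sequences, foreseen for the members, were not used here. Python 3.11.15, pandas 2.3.3, NumPy 2.4.6 and matplotlib 3.10.9 were used.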

Additional observations from a re-analysis of the deposited data

Results flagged for a closer look

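ATRA's effect had opposite directions without and with SAHA for Ddit3, Ppp1r15a and Atf3, in 2 pairs of libraries that share none. Ddit3 differed by -1.50 in ATRA against vehicle and by 4.64 in the combination against SAHA on the log2(FPKM + 1) scale. Ppp1r15a differed by -2.10 and 1.97, and Atf3 by -1.14 and 1.12, in the same pairs. In the combination against SAHA, Atf3 came to 0.98 after centring and to 0.57 after rescaling, short of the mark, while Ddit3 and Ppp1r15a stayed past it in both pairs. With 1 library per group, the difference between the pairs was not tested.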

How the results depend on the processing

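No paired analysis was possible because each group had 1 library and the labels give no replicate numbers, and for the same reason no library could be left out. No member's call changed sign under the alternatives tried, and Ddit3, Ppp1r15a, Atf3, Herpud1 and Hspa5 kept a departure of 1 or more under a pseudocount of 0.1, centring and rescaling. The members' median in the combination against vehicle was 0.89 with a pseudocount of 0.1, 0.97 over the 22 members with a mean of at least 5 FPKM, and 0.44 after rescaling. With at least 5 FPKM it was 0.32 for ATRA against vehicle, 0.40 for SAHA against vehicle, 0.41 for the combination against SAHA and 0.65 for the combination against ATRA. Rescaling gave 0.069 for ATRA against vehicle, 0.61 for SAHA against vehicle, -0.28 for the combination against SAHA, where the all-gene median was -0.33, and -0.40 for the departure. Centring gave 0.34 for SAHA against vehicle, 0.083 for the combination against SAHA and -0.11 for the departure, and no filter gave 0.058 for SAHA against vehicle. With a pseudocount of 0.1, 4 members were lower in the combination against ATRA (2 in the report). Departures of -1 or less numbered 2 after centring (Calr and Sec61b) and 4 after rescaling, against 0. Rescaling also gave 13 members higher in SAHA against vehicle, against 7, and 3 lower in the combination against SAHA, against 0. The higher share of all calls after centring was 43.2% for SAHA against vehicle and 63.2% for the combination against SAHA. The causes of these shifts were not tested. Depth limits Derl3 and, less so, Dnajb9.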

Other observations

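Besides the members and small RNAs, Nfil3 and Tsc22d3 were lower with ATRA than with vehicle and higher with the combination than with SAHA, both by the mark, a pattern looked for after the values were seen. Nfil3, a basic leucine zipper transcription factor, had 9.70 FPKM with the combination, 3.81 with ATRA, 3.86 with SAHA and 10.9 with vehicle. Tsc22d3, the glucocorticoid-induced leucine zipper gene, had 6.19, 6.71, 2.53 and 18.6 FPKM in the same order, in cultures that all held dexamethasone. Neither exceeded vehicle with the combination, unlike Ddit3 and Atf3.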
